A study of Mus musculus with 19 samples.

Results

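The proneural transcription factor genes were taken here as 8 genes, Neurog1, Neurog2, Neurod1, Neurod2, Neurod4, Neurod6, Insm1 and Bhlhe22. A peak summit was counted to a gene when that gene had the nearest end of any protein-coding gene within 100 kb, in GRCm38. By this rule 729 of the 1547369 deposited summits belonged to the 8 genes, out of 21887 protein-coding genes. All 8 genes had summits. The gene spans are chr13:56250478-56252180 for Neurog1, chr3:127632733-127635636 for Neurog2, chr2:79452637-79456636 for Neurod1 and chr11:98325415-98329645 for Neurod2. They are chr10:130268152-130280254 for Neurod4, chr6:55677818-55681263 for Neurod6, chr2:146221997-146225020 for Insm1 and chr3:18054325-18057514 for Bhlhe22. The assay was bulk ATAC-seq, which reads where a transposase can cut accessible DNA. The cells were Prom1+ cells sorted magnetically from the forebrain of mouse embryos at day 14, and Prom1 marks the surface of neural progenitors. The groups were Foxc1 hith/LacZ mutants on a retinoic acid (RA) diet (n = 6), Foxc1 hith/LacZ mutants without it (n = 4), Foxc1 wild-type controls on the RA diet (n = 5) and Foxc1 wild-type controls without it (n = 4). The hith allele of Foxc1 is hypomorphic and LacZ marks an insertion allele. Foxc1 is needed in the embryo for the forebrain meninges, a source of retinoic acid, to form. Neither allele is limited to the sorted cells, and summit lists do not check the genotype. The genotype label of mutant 1 reads wild type, against its title, and it was kept with the mutants. The labels do not say whether the libraries of a group came from separate embryos, so p-values measure the spread between these samples only.

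Proneural proteins of the basic helix-loop-helix (bHLH) family pair with E proteins, bind the E-box CANNTG and start neuronal differentiation. Notch signalling holds progenitors back through Hes repressors, which silence proneural genes. In the embryonic cortex, Neurog1 and Neurog2 act in dorsal progenitors and are followed by Neurod1 and Neurod4 in differentiating cells and by Neurod2, Neurod6 and Bhlhe22 in young neurons. Insm1 is a zinc finger protein, not a bHLH protein, that works beside them in intermediate progenitors. In sorted bulk cells, a lower share of cells with an open site and a less open site in each cell cannot be told apart.

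Libraries differed in how many summits were called, from 29112 to 87470 in mutants on the diet, 49804 to 115007 in mutants, 59106 to 91114 in controls on the diet and 77593 to 122591 in controls. Read depth was not analysed here. The comparisons therefore used the 29112 best-scoring summits of each library, the length of the shortest list, called matched summits below. Rank 1 is the best score in a library. Regions are matched summits chained at gaps of at most 200 bp and shared by at least 2 libraries. Mutant 4 on the diet, mutant 4 and mutant 3 had the regions least like those of the other libraries, with mean Jaccard overlaps of 0.612, 0.613 and 0.628, against up to 0.726. Of the 10 progenitor marker genes, 6 had a matched summit near a gene end in every library, Sox2, Fabp7 and Hes5 among them. That count was 4 of 10 for neurons (Tubb3 and Map2 among them, with Rbfox3 and Slc17a7 at 0 in every library), 0 of 10 for meningeal fibroblasts (Foxc2, Col3a1, Lum and Pdgfra at 0 in every library) and 1 of 8 for endothelial cells (Kdr). It was 0 of 8 for microglia and macrophages and 0 of 7 for erythroid cells. Summed neuron marker summits were 23 to 26 in mutants on the diet, 20 to 26 in mutants, 21 to 33 in controls on the diet and 18 to 21 in controls.

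Promoter letters are shown for the 4 genes whose 250 bases upstream of the start site held matched summits in more than 1 library. They are RefSeq sequences of GRCm38.p6, 5′ to 3′ on the gene's strand, all on the minus strand, with E-boxes in capitals.
Neurog1 (chr13:56252181-56252430): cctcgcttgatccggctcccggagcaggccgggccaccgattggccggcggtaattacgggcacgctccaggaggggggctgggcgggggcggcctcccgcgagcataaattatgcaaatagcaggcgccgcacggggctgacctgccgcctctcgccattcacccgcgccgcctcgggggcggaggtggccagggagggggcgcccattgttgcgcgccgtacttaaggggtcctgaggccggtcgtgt
Neurod1 (chr2:79456637-79456886): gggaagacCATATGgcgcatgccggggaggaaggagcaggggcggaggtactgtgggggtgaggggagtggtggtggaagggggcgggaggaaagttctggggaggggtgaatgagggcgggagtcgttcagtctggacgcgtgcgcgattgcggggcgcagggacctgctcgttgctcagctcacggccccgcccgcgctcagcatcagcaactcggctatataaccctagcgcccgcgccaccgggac
Neurod2 (chr11:98329646-98329895): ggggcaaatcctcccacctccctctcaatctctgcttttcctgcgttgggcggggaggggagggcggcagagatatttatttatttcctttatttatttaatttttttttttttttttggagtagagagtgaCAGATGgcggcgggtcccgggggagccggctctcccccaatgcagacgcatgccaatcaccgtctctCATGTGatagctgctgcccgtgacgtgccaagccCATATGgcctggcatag
Neurod6 (chr6:55681264-55681513): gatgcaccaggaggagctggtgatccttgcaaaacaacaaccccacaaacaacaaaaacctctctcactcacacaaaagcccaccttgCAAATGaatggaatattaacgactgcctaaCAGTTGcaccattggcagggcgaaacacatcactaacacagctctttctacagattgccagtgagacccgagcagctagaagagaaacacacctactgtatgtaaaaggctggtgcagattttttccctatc

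A matched summit lay in the window of Neurod1 in 17 libraries, of Neurog1 in 11, of Neurod2 in 7 and of Neurod6 in 4. Among the 6 genes with a RefSeq promoter entry, the window of Neurod4 held one in 1 library and that of Neurog2 in 0. The start-site summit of Neurog2 lay farther upstream, as given below. Any E-box (CANNTG, which reads the same on both strands) was found in 3 of the 6 windows, Neurod1, Neurod2 and Neurod6, against 66.2% of 32851 promoter windows of that length. CATATG, 1 form of CANNTG, was found in Neurod1 and Neurod2, against 3.46% of all windows. CAGATG, searched on both strands and also a form of CANNTG, was found in Neurod2, against 14.4%. CAGCTG and CACGTG were found in 0 of the 6, against 13% and 6.02%. TGGGAA, the core of the Rbpj motif of Notch signalling, was found on neither strand of any of the 6 windows, against 21.6%. AGGTCA, the core motif of nuclear receptors, was found in Neurog1, against 14%, and ATTGTT, a core of Sox motifs, in Neurog1 and Neurog2, against 9.42%.

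Most of the genes were open at an end. A matched summit lay within 1 kb of a gene end in all 19 libraries at Neurog1, Neurod1, Neurod6 and Bhlhe22, in 18 at Insm1, in 17 at Neurog2 and in 13 at Neurod2. Neurod4 had one in 1 library. For all protein-coding genes, 29.7% had such a summit in every library, against 4 of these 8. Of the deposited Neurog2 summits 94.6% were among the matched summits, and of those of Insm1 87.0% were. That share was 62.4% for Neurod6, 53.8% for Neurod4, 35.1% for Bhlhe22, 34.1% for Neurod1, 32.8% for Neurog1 and 23.5% for Neurod2. Over all genes it was 35.7%. A high share is not a high rank within the matched set, as the ranks of Insm1 below show.

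The 371 matched summits of the 8 genes formed 28 regions, of which 9 (32.1%) were present in all 19 libraries, against 29% of all 44878 regions. With all deposited summits there were 61 regions, of which 12 (19.7%) were in all libraries, against 12.4% of 150489. Neurod6 had 9 of the 28 regions, Neurog2 had 5, Neurod4 had 4, Neurog1 and Neurod1 had 3 each, Neurod2 had 2, and Insm1 and Bhlhe22 had 1 each. Within 1 kb of a gene end, 4 of 9 regions were in all libraries, against 53.7% of all regions at that distance. From 1 to 10 kb this was 2 of 8 against 21.4%, and from 10 to 100 kb it was 3 of 11 against 19.9%.

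**Figure D1:**
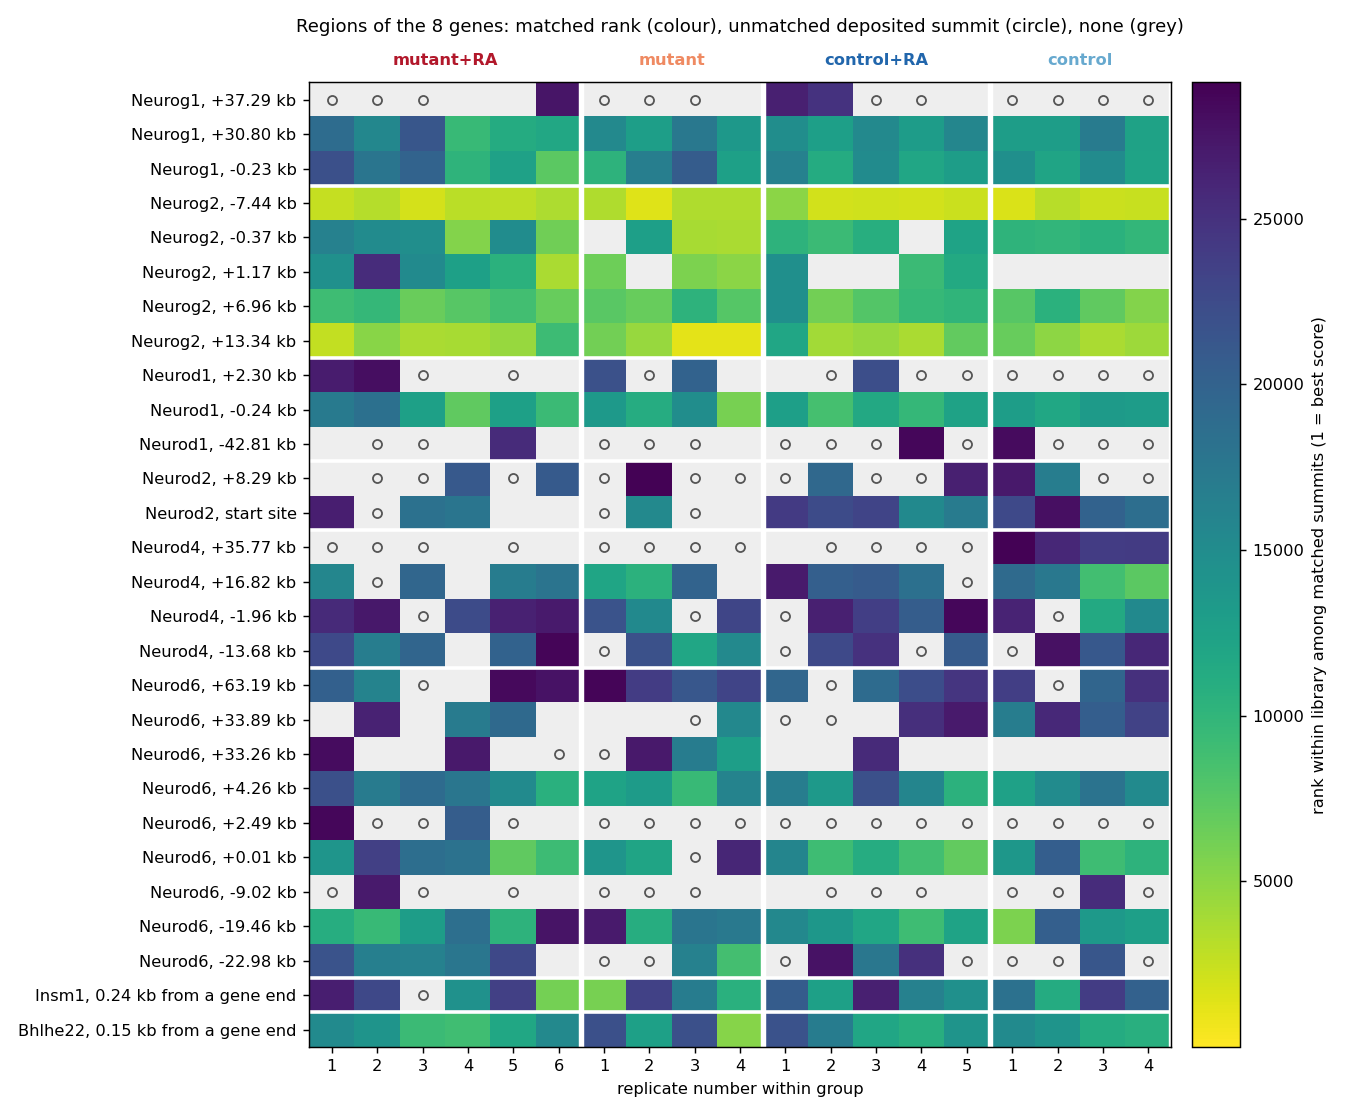
Each row is 1 of the 28 regions, named by its gene and its distance from the start site (from the nearer gene end for Insm1 and Bhlhe22), and each column is 1 library. Colour gives the rank among matched summits, a circle marks a deposited summit outside the matched set, and plain grey marks no summit; the Neurog2 rows at -7.44 kb and +13.34 kb hold the best ranks, and the Neurod4 row at +35.77 kb has colour in the 4 controls only.

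The best-ranked sites belonged to Neurog2, the determination factor of dorsal cortical progenitors. A region 7.44 kb upstream of its start site (chr3:127625544-127625944, 7.04 kb before the gene) had ranks of 1901, 2933 and 3629 as the lowest, median and highest in mutants on the diet. The ranks there were 3435, 1464, 3465 and 3500 in mutants, 5019, 1977, 2158, 2021 and 2299 in controls on the diet and 1619, 3167, 2308 and 2400 in controls. All groups overlapped, and over all libraries the median rank was 2546, with 17.3% of the 13035 regions present everywhere ranked better. A second region stood 13.3 kb downstream of the start site (chr3:127646476-127646578, 10.8 kb past the gene), with a median rank of 4440 and 30.4% ranked better. The third, 6.96 kb downstream (chr3:127639999-127640310, 4.46 kb past the gene), had a median rank of 7728 and 52.2% ranked better.

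**Figure D2:**
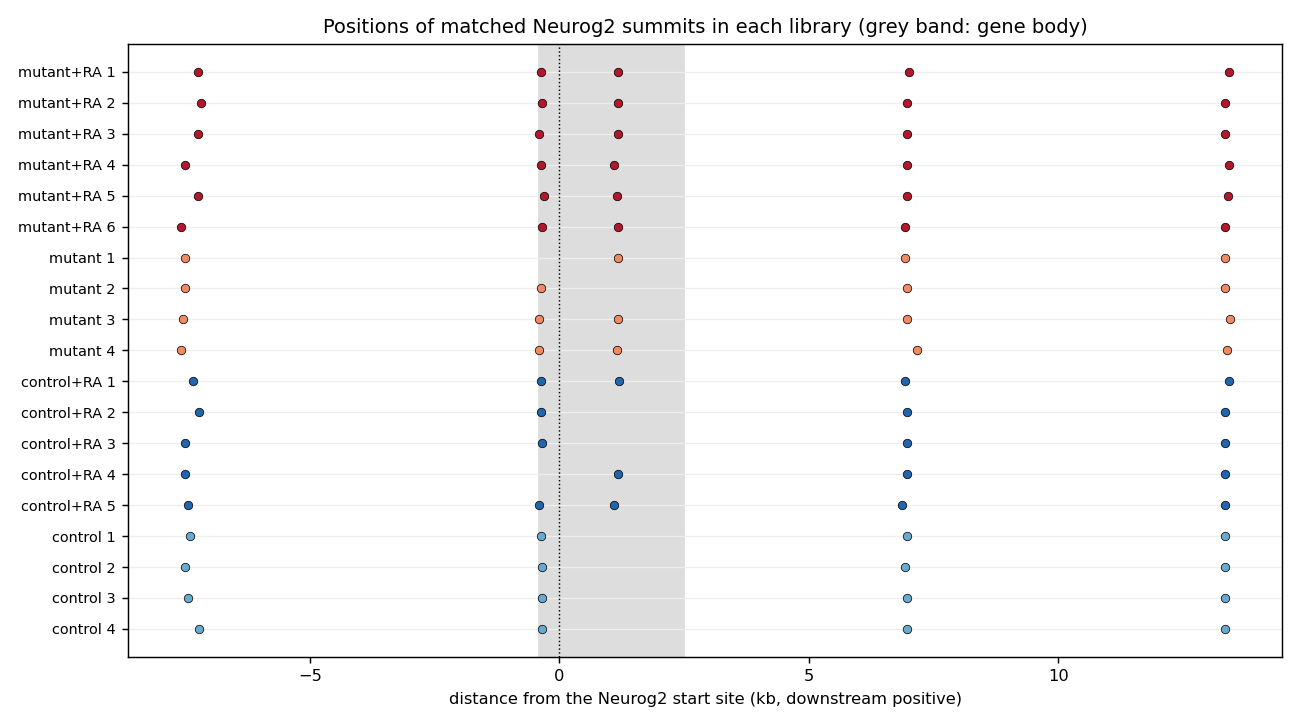
The horizontal axis is the distance from the Neurog2 start site in kb and each row is 1 library, with a point for each matched summit in a shared region and the gene body in grey. The sites near -7.44, +6.96 and +13.34 kb have a point in every library, while the site near +1.17 kb has points in 6 of 6 mutants on the diet, 3 of 4 mutants, 3 of 5 controls on the diet and 0 of 4 controls.

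The other regions present in all libraries ranked lower. They were the promoter regions of Neurod1 (236 bp upstream, median rank 12569) and Neurog1 (229 bp upstream, 12902), a region 19.5 kb upstream of Neurod6 (12920) and one 30.8 kb downstream of the Neurog1 start site (13602). The last 2 were the region 151 bp before Bhlhe22 (13992) and one 817 bp past the end of Neurod6 (15208). Between 80.2% and 90.9% of the regions present everywhere had better ranks than these 6. The Insm1 region, 239 bp before the gene, was present in 18 libraries with a median rank of 17590.5, and the Neurod6 start-site region, 8 bp from the start, in 18 with 12924.5. Among regions nearest to a start site, the one of Neurod2 (4 bp from the start, 13 libraries) had a median rank of 20013. Neurod4 had its nearest region 1.96 kb upstream, in 15 libraries at a median rank of 23725, and its best-ranked region 16.8 kb downstream of the start site, 4.72 kb past the gene, in 15 at 17932.

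Ranks within the regions present everywhere were compared with limma on log2 ranks over all 13035 such regions, where a negative difference means a rank nearer the top in the group named first. Of the 9 regions of these genes, 0 were called at a limma adjusted p under 0.05 in any of 8 contrasts and 0 had an unadjusted p under 0.05. Over all regions the called share was 0% for mutants against controls, 0% for controls on against off the diet, 0.00767% for mutants on against off the diet, 0% for mutants on the diet against controls on the diet and 0% for mutants on the diet against controls. It was 0% for the interaction of genotype and diet, 0.414% for diet pooled over genotypes and 0% for genotype pooled over diets. In the same order the share at an unadjusted p under 0.05 was 12.8%, 5.88%, 17%, 1.73%, 13.4%, 4.48%, 16.9% and 10.3%. The median log2 difference between mutants and controls was 0.09 over the 9 regions, 6 of them positive, and 0.05 over all regions. Between mutants on and off the diet it was 0.01, with 5 positive, and -0.02 over all regions.

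The lowest p, unadjusted, belonged to the Neurog2 region 13.3 kb downstream. Its ranks were 2662, 4188.5 and 9119 as the lowest, median and highest in mutants on the diet, and 6201, 4505, 1250 and 1215 in mutants. In controls on the diet they were 11900, 4085, 4440, 3731 and 6961, and in controls 6752, 4899, 3753 and 4252. Mutants 3 and 4 held the best ranks, and mutants 1 and 2 lay within the range of the other groups. The log2 rank difference was -0.62 with SE 0.31 for genotype pooled over diets (limma adjusted p = 0.487) and -0.91 with SE 0.47 for mutants against controls (limma adjusted p = 0.417). Mutants on against off the diet differed there by 0.81 with SE 0.43 (limma adjusted p = 0.341). Without the 3 least alike libraries, mutants 3 and 4 among them, these 3 differences were -0.071, 0.14 and -0.19 (limma adjusted p = 0.999, 1.00 and 0.898), so the last 2 changed sign. Without mutant 1 alone, mutants on against off the diet differed by 1.24 (limma adjusted p = 0.0962).

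**Figure D3:**
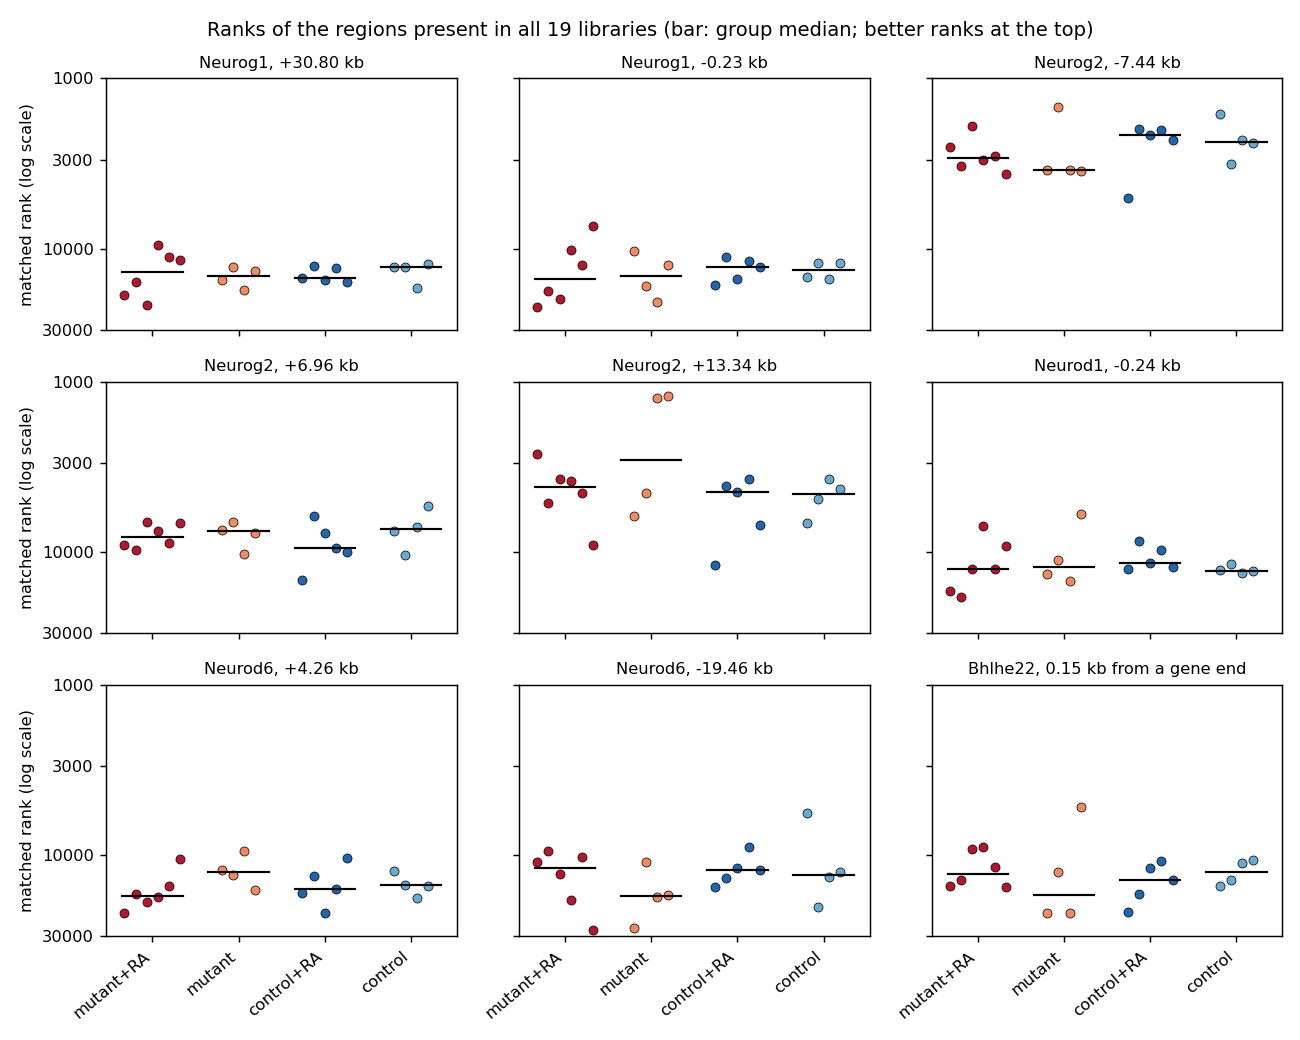
Each panel is 1 of the 9 regions present in all 19 libraries, with the matched rank on a log axis (better ranks at the top), 1 point per library and a bar at the group median. In each panel the 4 groups overlap, and at the Neurog2 region +13.34 kb from the start site mutants 3 and 4 stand above the other libraries.

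Presence of a region was compared with two-sided Fisher's exact tests over all 44878 regions, and for pooled effects with exact tests stratified on the other factor. Of the 28 regions, 0 were called at a Benjamini-Hochberg adjusted p under 0.05 in any of 7 contrasts, and the called share of all regions was 0% in each. Full separation from the 4 controls gives an exact p of only 0.0286 for mutants, 0.00794 for controls on the diet and 0.00476 for mutants on the diet. Over 44878 regions these stay above an adjusted p of 0.05 unless far more regions separate than the 0.152% to 0.401% found. Mutants on against off the diet, and mutants against controls both on the diet, have groups of like size and the same kind of limit. The 0 calls between pairs of groups therefore cannot show that presence was alike. At an unadjusted exact p under 0.05 there was 1 of the 28 regions for mutants against controls (0.152% of all regions), 1 for controls on against off the diet (2.62%) and 0 for mutants on against off the diet (1.21%). There were 0 for mutants on the diet against controls on the diet (0.305%), 2 for mutants on the diet against controls (2.75%), 1 for diet pooled over genotypes (4.15%) and 3 for genotype pooled over diets (1.67%). These results came from 3 regions, at Neurog2, Neurod2 and Neurod4.

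At Neurog2, a site inside the gene, 1.17 kb downstream of the start site (chr3:127634228-127634333), was present in 6 of 6 mutants on the diet, 3 of 4 mutants, 3 of 5 controls on the diet and 0 of 4 controls. Mutants on the diet and controls did not overlap (exact p = 0.00476, adjusted p = 1). Regions that separated these 2 groups fully, in either direction, made up 0.390% of all regions. Pooled over diets, it was present in 9 of 10 mutants and 3 of 9 controls (exact p = 0.0130, adjusted p = 1). Where present, it ranked 3658, 13545 and 25373 as the lowest, median and highest in mutants on the diet. It ranked 6480, 5722 and 5017 in mutants 1, 3 and 4, and 14586, 9290 and 11481 in controls on the diet 1, 4 and 5. None of the 7 libraries without it had a deposited summit of any rank there, so the result was alike with all deposited summits (adjusted p = 0.561 for mutants on the diet against controls). Whether the site is exonic was not analysed here, since the annotation used gives gene spans without exons.

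A neighbouring site 373 bp upstream of that start site (chr3:127632731-127632833) was centred 30 bp inside the outer edge of the annotated gene and was present in 17 libraries. Its lowest, median and highest ranks were 5458, 14806.5 and 16371 in mutants on the diet. The other ranks were 12665, 3858 and 3687 in mutants 2 to 4, 10250, 9276, 10811 and 12174 in controls on the diet 1, 2, 3 and 5, and 10212, 9989, 10479 and 9839 in controls. Both sites had a summit in 6 mutants on the diet, 2 mutants, 2 controls on the diet and 0 controls. The upstream site alone had one in 0 mutants on the diet, 1 mutant, 2 controls on the diet and 4 controls, and the downstream site alone in 1 mutant and 1 control on the diet. The 2 sites are 1540.5 bp apart, and every library had at least 1 of them. The files give 1 summit per called peak, and neighbouring summits of a library were at least 131 bp apart, with 5% of gaps under 1143 bp. How far peaks that span both sites enter into this was not tested, since peak widths were not used here.

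At Neurod2, a factor of young cortical neurons, the start-site region (chr11:98329626-98329693) was present in 3 of 6 mutants on the diet, 1 of 4 mutants, 5 of 5 controls on the diet and 4 of 4 controls. Pooled over diets it was present in 4 of 10 mutants and 9 of 9 controls (exact p = 0.0130, adjusted p = 1). Among deposited summits, mutants on the diet 1 to 4 ranked 26613, 56326, 18226 and 17762 there, with none in mutants on the diet 5 and 6. Mutants 1 to 3 ranked 32412, 15368 and 51540, with none in mutant 4. Controls on the diet ranked 24185, 22445, 23129, 15307 and 17035, and controls 22631, 27945, 20013 and 18555. Every control library, on or off the diet, was inside the matched set, while 4 mutants of either diet lay inside it, at ranks within those of the controls. With all deposited summits the region was present in 4 of 6, 3 of 4, 5 of 5 and 4 of 4 libraries in that order of groups (exact p = 0.227 for genotype pooled over diets). A neighbouring deposited region (chr11:98329993-98330247) was present in 2, 1, 0 and 0 libraries of these groups. Mutants on the diet 5 and 6 had deposited summits 344 and 598 bp from the centre of the start-site region, at ranks 40109 and 32314. Whether the summit is displaced there was not tested.

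At Neurod4, a proneural factor of differentiating progenitors, a distal site was present in 0 of 6 mutants on the diet, 0 of 4 mutants, 0 of 5 controls on the diet and 4 of 4 controls. It lies 35.8 kb downstream of the start site and 23.7 kb past the gene (chr10:130244439-130244487). It was the 1 region of 44878 (0.00223%) present in all controls and in no other library. The exact p was 0.0286 for mutants against controls, 0.00794 for controls on against off the diet and 0.00476 for mutants on the diet against controls, with an adjusted p of 1 each. Fully separated regions, in either direction, made up 0.152%, 0.401% and 0.390% of all regions in these contrasts, which share the 4 controls. Regions present in all libraries of another group and in no other library numbered 3 for mutants, 1 for mutants on the diet and 0 for controls on the diet. For the Neurod4 site the adjusted p was 0.842 for diet pooled over genotypes and 1 for genotype pooled over diets. The site entered the tested regions through the controls alone, since a region needs matched summits of at least 2 libraries. Its p-values are therefore not independent of that filter.

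The Neurod4 separation was one of rank. Among all deposited summits the site ranked 40959, 53827, 38388 and 47441 in mutants on the diet 1, 2, 3 and 5, with none in mutants 4 and 6 on the diet. It ranked 31450, 31105, 30697 and 43108 in mutants, and 42526, 33986, 37945 and 40680 in controls on the diet 2 to 5, with none in control 1 on the diet. In controls it ranked 28910, 25870, 23919 and 24088. The controls thus stood just inside the limit of 29112 and mutants 1 to 3 just outside it, and 16 of 19 libraries had a deposited summit there. With all deposited summits the region was present in 4 of 4 mutants and 4 of 4 controls. Median summit scores, as -log10 q, were 7.33 to 12.9 in mutants on the diet, 6.44 to 18.4 in mutants, 11.1 to 16.9 in controls on the diet and 14.8 to 18.1 in controls, and their part in this rank difference was not tested.

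**Figure D4:**
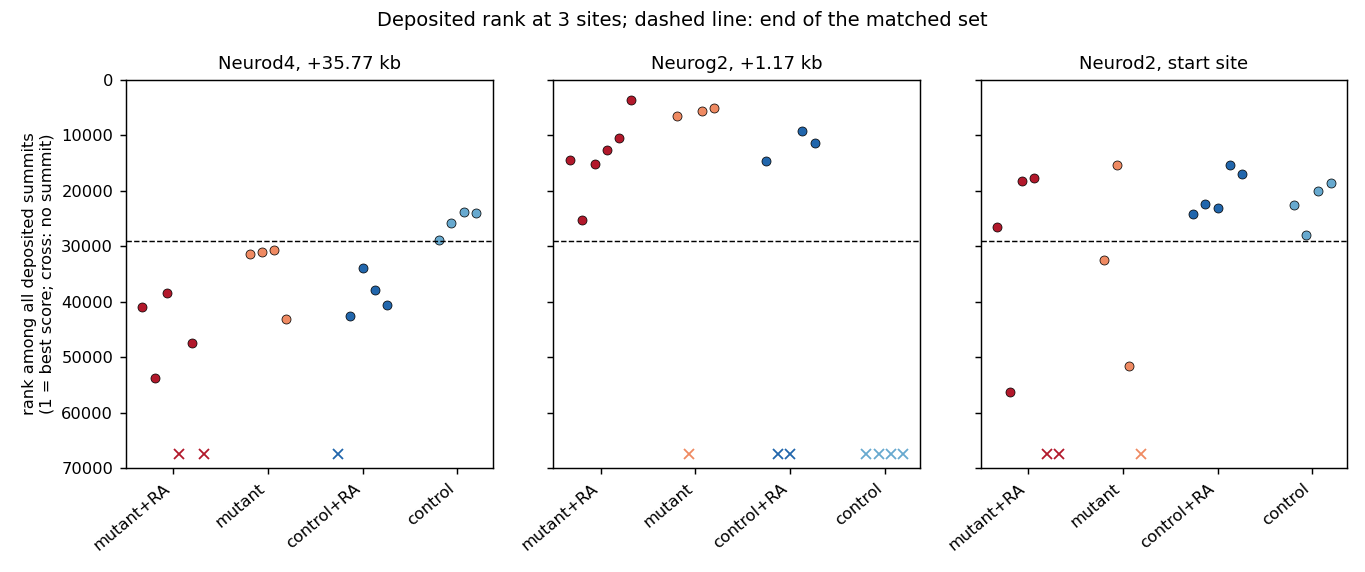
The vertical axis is the rank among all deposited summits (1 at the top), with 1 point per library, a cross for no summit, and a dashed line at 29112, the end of the matched set. At the Neurod4 site +35.77 kb from the start the 4 controls stand above the line and no other library does, while at the Neurog2 site +1.17 kb from the start the 4 controls have no summit at all.

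Neurod6, a factor of differentiating pyramidal neurons, had 2 neighbouring sites. The regions 33.9 kb (chr6:55647321-55647460) and 33.3 kb (chr6:55647977-55648137) downstream of its start site are 622.5 bp apart. The farther one was present in 3 of 6 mutants on the diet, 1 of 4 mutants, 2 of 5 controls on the diet and 4 of 4 controls, and the nearer one in 2, 3, 1 and 0. Among deposited summits, the farther site was present in 3 of 6 mutants on the diet, 2 of 4 mutants, 4 of 5 controls on the diet and 4 of 4 controls. The nearer site was present in 3 of 6 mutants on the diet, 4 of 4 mutants, 1 of 5 controls on the diet and 0 of 4 controls (exact p = 0.0286 for mutants against controls and 0.0216 for genotype pooled over diets, adjusted p = 1 each). Both sites had a deposited summit in 3 libraries, the farther site alone in 10, the nearer site alone in 5 and neither in 1, so 18 of 19 libraries held at least 1 of them. As at Neurog2, how far peaks that span both sites enter into this was not tested.

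Presence was also compared with all deposited summits, over 150489 regions. Of the 61 regions of the 8 genes, 0 were called at an adjusted p under 0.05 in any of 7 contrasts, and the called share of all regions was 0% in each. In contrasts between a pair of groups, group size limits the adjusted p here as it did for matched summits. At an unadjusted exact p under 0.05 there was 1 of 61 for mutants against controls (0.0857% of all regions), 2 for controls on against off the diet (2.73%) and 1 for mutants on against off the diet (2.7%). There were 0 for mutants on the diet against controls on the diet (0.409%), 1 for mutants on the diet against controls (5.08%), 1 for diet pooled over genotypes (7.22%) and 2 for genotype pooled over diets (1.85%). Besides the Neurog2 site and the nearer Neurod6 site these came from 3 regions. Another region counted to Neurod6 (chr6:55717347-55717402) was present in 0 of 6 mutants on the diet, 3 of 4 mutants, 0 of 5 controls on the diet and 1 of 4 controls (exact p = 0.0333, adjusted p = 1 for mutants on against off the diet, and exact p = 0.0148, adjusted p = 0.494 for diet pooled over genotypes). A Neurog1 region (chr13:56258837-56258993) was present in 4 of 6, 2 of 4, 4 of 5 and 0 of 4 in that order of groups, and a Neurod1 region (chr2:79512022-79512133) in 1 of 6, 1 of 4, 0 of 5 and 3 of 4 (exact p = 0.0476, adjusted p = 1 each for controls on against off the diet). The Neurod6 region at chr6:55717347-55717402 reached the 2 libraries needed for a region only through mutants off the diet. Its p-values are therefore not independent of that filter.

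Matched summits counted to the 8 genes together were 17, 20.5 and 22 per library as the lowest, median and highest in mutants on the diet. They were 16 to 21 in mutants, 17 to 20 in controls on the diet and 18 to 21 in controls, so the groups overlapped. Summits per gene were compared with limma on log2(summits + 0.5) over the 10828 genes that averaged 1 or more over the libraries, a filter that all 8 genes passed. Neurod2 and Insm1 passed it only narrowly, with 20 matched summits each over 19 libraries. Neurod2 averaged 0.833 and 0.5 in mutants on and off the diet, and passed through controls (1.4 and 1.5). Insm1 passed through mutants (1.5), against 0.833 in mutants on the diet and 1 in both control groups. Differences between those groups are therefore not independent of the filter. Means below are given ± SD over the libraries of a group (n = 6 mutants on the diet, 4 mutants, 5 controls on the diet and 4 controls). None was called at a limma adjusted p under 0.05 in any of 8 contrasts, while 8 of the 64 tests (12.5%) had an unadjusted limma p under 0.05, against 5.39% over all genes. Those tests belonged to Neurod4, Neurog2, Neurod2 and Insm1 only. The contrasts share libraries, and the genes were chosen with earlier results of these data known. The 2 shares therefore cannot show an excess. Over all genes the called share was 0% for mutants against controls, 0% for controls on against off the diet, 0.0185% for mutants on against off the diet, 0.0277% for mutants on the diet against controls on the diet and 0.0277% for mutants on the diet against controls. It was 0.00924% for the interaction, 0.0646% for diet pooled over genotypes and 0.00924% for genotype pooled over diets. At an unadjusted p under 0.05 the shares over all genes, in that order, were 5.71%, 4.25%, 6.81%, 3.05%, 6.67%, 3.49%, 7.29% and 5.86%. The 8 genes had 2, 1, 1, 0, 1, 1, 0 and 2 such results.

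Neurog2 had 5 matched summits in each of 6 mutants on the diet, 4, 4, 5 and 6 in mutants, 5, 4, 4, 4 and 5 in controls on the diet and 4 in every control. Mutants on the diet thus had more than controls without overlap, by 0.29 on the log2 scale with SE 0.09 (limma adjusted p = 0.400). Between these 2 groups the extra matched summit is the site 1.17 kb downstream of the start site. The count therefore repeats the presence result given above. Of the 10828 genes, 58 (0.536%) separated these 2 groups without overlap, 18 higher and 40 lower in mutants on the diet. Neither of these 2 groups had any Neurog2 spread, so the SE rests on the other groups and on other genes. For genotype pooled over diets the difference was 0.19 with SE 0.06 (limma adjusted p = 0.781). With 14556 summits per library in place of 29112, the Neurog2 difference of mutants on the diet from controls was -0.024, so its direction depends on where the list ends. With all deposited summits, Neurog2 had 5 in each mutant on the diet and 4, 4, 6 and 5 in controls, so these groups overlapped. Summed summits of the neuron markers (23 to 26 in mutants on the diet, 18 to 21 in controls) and of the meningeal fibroblast markers (13 to 19 in mutants on the diet, 11 to 12 in controls) did not overlap between these groups either. Progenitor marker sums were 48 to 56 and 45 to 48, meeting at 48. Endothelial, microglia and erythroid marker sums overlapped. How often sums over other gene lists separate these groups was not analysed. The part of the markers in the Neurog2 difference was not tested.

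Neurod4 counts were 2, 2.5 and 3 as the lowest, median and highest in mutants on the diet, 2, 3, 2 and 2 in mutants, 1, 3, 3, 2 and 2 in controls on the diet and 3, 3, 4 and 4 in controls. Controls held the highest counts, with overlap at 3. Mutants differed from controls by -0.55 on the log2 scale with SE 0.23 (limma adjusted p = 0.794). Controls on the diet differed from controls by -0.62 with SE 0.22 (limma adjusted p = 0.802), and the interaction was 0.74 with SE 0.30 (limma adjusted p = 1). With all deposited summits these 3 values were -0.21, -0.29 and 0.024. The distal site that only controls had among matched summits is 1 of the summits counted here.

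Neurod2 had 0, 1 and 2 summits as the lowest, median and highest in mutants on the diet, 0, 2, 0 and 0 in mutants, 1, 2, 1, 1 and 2 in controls on the diet and 2, 2, 1 and 1 in controls. All libraries at 0 were mutants, on or off the diet. Mutants differed from controls by -1.37 on the log2 scale with SE 0.60 (limma adjusted p = 0.794), and genotype pooled over diets by -1.04 with SE 0.40 (limma adjusted p = 0.781). Across the other settings tried, the Neurod2 difference of mutants from controls lay between -1.95 and -0.31. With all deposited summits Neurod2 averaged 3.83 ± 1.60 summits in mutants on the diet, 4.25 ± 2.06 in mutants, 5 ± 2 in controls on the diet and 5 ± 0.816 in controls.

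Insm1 had 1 summit in 5 mutants on the diet and 0 in the other, 1, 1, 2 and 2 in mutants, and 1 in each control on or off the diet. Mutants on the diet differed from mutants by -0.63 on the log2 scale with SE 0.27 (limma adjusted p = 0.659). The mutants with 2 summits were mutants 3 and 4, and without the 3 least alike libraries the difference was -0.32 (limma adjusted p = 1). Neurog1, Neurod1, Neurod6 and Bhlhe22 had no limma p under 0.05. Neurod6, with the most summits, averaged 6 ± 1.26 in mutants on the diet, 5.25 ± 1.26 in mutants, 5 ± 1 in controls on the diet and 5.25 ± 1.26 in controls. Neurog1 averaged 2.67 ± 1.21 in mutants on the diet and 2.4 ± 0.548 in controls on the diet, and had 2 in each mutant and each control. Neurod1 averaged 1.5 ± 0.548, 1.75 ± 0.957, 1.40 ± 0.548 and 1.25 ± 0.5 in mutants on the diet, mutants, controls on the diet and controls. Bhlhe22 had 1 summit in every library but mutant 3, which had 2.

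**Figure D5:**
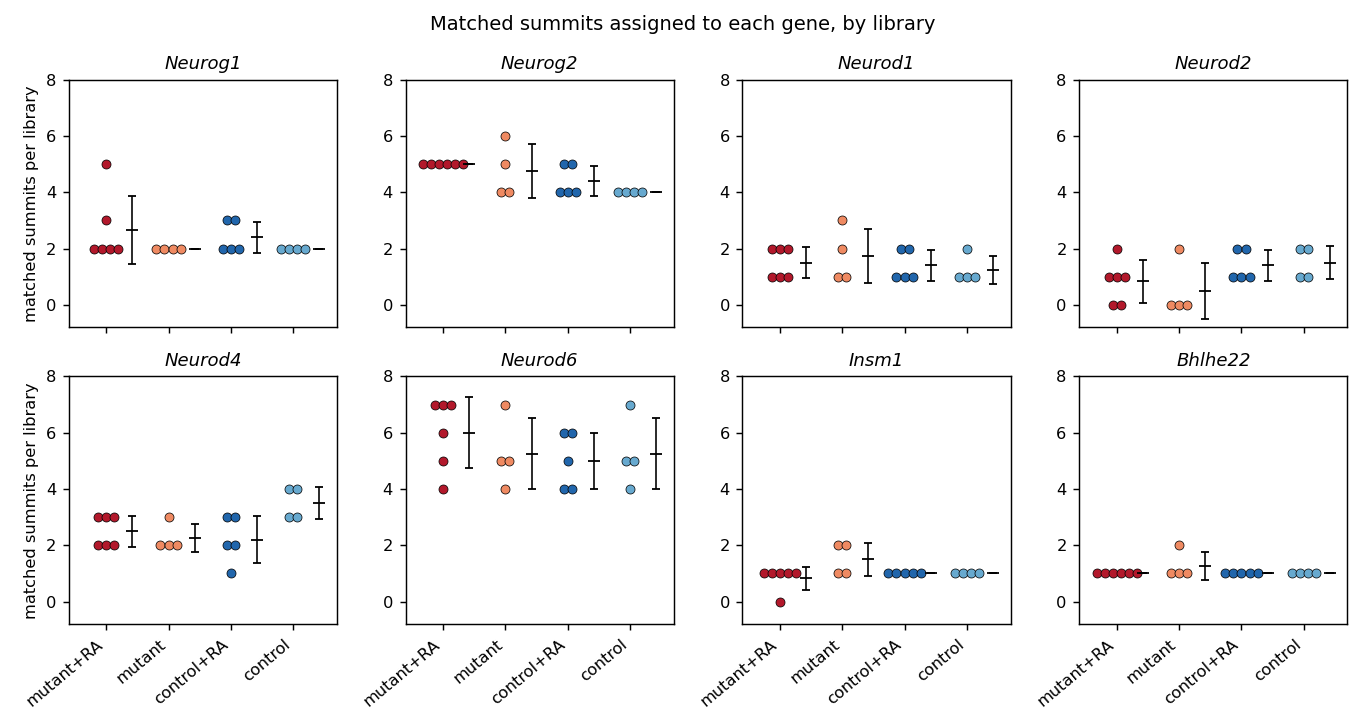
Each panel is 1 gene, with the matched summits counted to it on the vertical axis, 1 point per library and the mean ± SD of each group beside the points. Neurog2 has 5 in all mutants on the diet and 4 in all controls, Neurod4 is highest in controls, and the counts of 0 at Neurod2 are all in mutants.

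Hes, Hey and Id genes and Rest, most of which restrain proneural factors, were given by a list of 11. Of these, 10 passed the filter on low counts and 0 were called by limma in any contrast. Between mutants and controls 7 had a positive and 2 a negative difference, with a median of 0.13 on the log2 scale, against 0.00 over all genes. Rest, a repressor of neuronal genes, averaged 1.5 ± 1 matched summits in mutants and 0.25 ± 0.5 in controls, differing by log2 1.49, SE 0.46 (limma adjusted p = 0.668). Mutants on the diet averaged 1.33 ± 0.516, which differed from controls by 1.43 with SE 0.42 (limma adjusted p = 0.358). Controls on the diet averaged 1 ± 0.707, which differed from controls by 1.02 (limma adjusted p = 1), so controls had the lowest mean of the 4 groups. For genotype pooled over diets Rest differed by 0.95 (limma adjusted p = 0.781). Controls alone averaged fewer than 1 Rest summit, so Rest passed the filter on low counts through the other groups. These Rest differences are therefore not independent of the filter. Id1, which blocks E proteins, had 2.33 ± 0.516 in mutants on the diet and 1.5 ± 1 in mutants, a difference of 0.59 (limma adjusted p = 0.536). It had 2.4 ± 0.548 in controls on the diet and 2.25 ± 0.5 in controls, so mutants off the diet had the lowest Id1 mean. Mutants differed from controls there by -0.55 (limma adjusted p = 0.794).

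Among 16 E protein and other neurogenic bHLH genes 12 were measured and 0 called. Between mutants and controls 5 differences were positive and 5 negative (median 0.00). Olig1, a factor of ventral progenitors and oligodendrocytes, averaged 4.5 ± 1.38 in mutants on the diet, 5 ± 1.41 in mutants, 4.8 ± 0.447 in controls on the diet and 2.5 ± 0.577 in controls, so controls stood lowest. Against controls the log2 difference was 0.70 for mutants on the diet, 0.86 for mutants and 0.84 for controls on the diet (limma adjusted p = 0.400, 0.668 and 0.595), and these contrasts share the 4 controls. The Olig1 interaction was -1.002 with SE 0.32 (limma adjusted p = 1). Its neighbour Olig2 averaged 1 ± 0.894 in mutants on the diet, 2.25 ± 0.5 in mutants, 1.8 ± 0.447 in controls on the diet and 2.75 ± 0.5 in controls. Mutants on the diet had the lowest Olig2 mean and differed from mutants by -1.14, from controls on the diet by -0.87 and from controls by -1.38 (limma adjusted p = 0.453, 1 and 0.391). For diet pooled over genotypes Olig2 differed by -0.83 (limma adjusted p = 0.487). Of the E proteins, the partners of proneural factors, Tcf4 averaged 5.67 ± 0.816 in mutants on the diet, 7 ± 2.45 in mutants, 5 ± 1.22 in controls on the diet and 4 ± 0.816 in controls. Its log2 difference was 0.46 for mutants on the diet against controls, 0.70 for mutants against controls and 0.44 for genotype pooled over diets (limma adjusted p = 0.683, 0.668 and 0.781). The E protein gene Tcf3 went the other way, with 2.5 ± 1.73 in mutants and 4 ± 0.816 in controls. It differed from controls by -0.77 in mutants and by -0.59 in mutants on the diet (limma adjusted p = 0.794 and 0.814). Tcf12, also an E protein gene, differed by 0.06 between mutants and controls. Tal2 differed by -0.59 between controls on and off the diet (limma adjusted p = 0.849), with an interaction of 0.77 (limma adjusted p = 1).

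Of 25 known targets of Neurog2 or Neurod1, 24 were measured and 0 called. Between mutants and controls 8 had a positive and 15 a negative difference (median -0.14 on the log2 scale, against 0.00 over all genes), and between mutants on the diet and controls 7 and 15 (median -0.06). Tbr1, a factor of deep-layer neurons, averaged 2.67 ± 1.21 in mutants on the diet, 3.25 ± 1.26 in mutants, 0.8 ± 0.837 in controls on the diet and 2.25 ± 0.957 in controls, so controls on the diet stood lowest. Mutants on the diet differed there from controls on the diet by 1.49 with SE 0.40 (limma adjusted p = 0.907), and controls on the diet from controls by -1.28 (limma adjusted p = 0.802). Pooled over the other factor, the Tbr1 difference was -0.77 for diet and 0.98 for genotype (limma adjusted p = 0.623 and 0.781). Cbfa2t2 and Cbfa2t3 are related corepressor genes. Cbfa2t2 averaged 5.67 ± 0.816 in mutants on the diet, 6.25 ± 0.957 in mutants, 6 in every control on the diet and 7.25 ± 0.957 in controls. It differed by -0.33 between mutants on the diet and controls and by -0.19 for diet pooled over genotypes (limma adjusted p = 0.400 and 0.623). Cbfa2t3 averaged 3.50 ± 1.29 in mutants and had 5 in each of 4 controls (difference -0.52, limma adjusted p = 0.722), and differed by -0.36 for genotype pooled over diets (limma adjusted p = 0.781). Gadd45g, a growth arrest gene, differed by -0.29 for diet pooled over genotypes (limma adjusted p = 0.629), and Srrm4, a splicing factor of neurons, by -0.54 for genotype pooled over diets (limma adjusted p = 0.781). The tubulin gene Tubb2b had 1 summit in every library but mutants 3 and 4, which had 2. It differed by 0.37 between mutants and controls and by -0.37 between mutants on and off the diet (limma adjusted p = 0.668 and 0.405), and by -0.18 for diet pooled over genotypes and -0.37 for the interaction (limma adjusted p = 0.660 and 1). Dcx, a microtubule protein of migrating neurons, differed by 0.78 between controls on and off the diet (limma adjusted p = 0.789), with an interaction of -0.86 (limma adjusted p = 1).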

How the data were processed

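Peak summits of 19 bulk ATAC-seq libraries were used. The authors called them with MACS2 on each library, and the deposited score per summit is a -log10 q value; the submitters' processing notes also name BWA, Signac, DiffBind, mm10 and GRCm38. Depth in reads is unknown. Groups came from the sample titles. Each summit went to whichever protein-coding gene of RefSeq GRCm38.p6 had the closest end, up to 100 kb away. Summits per gene and log2 ranks were fitted with limma 3.58.1 (R 4.3.3, trend and robust, 1 coefficient per group, Benjamini-Hochberg over all genes or regions). Presence was tested with Fisher's exact and exact stratified tests (scipy 1.17.1). The scripts were tested on simulated data. The members and lists were chosen with earlier results of these data known. Sites were named if nearest the start, best ranked or at an unadjusted p under 0.05. List genes were named at such a p, at most 5 per contrast by smallest p over all lists. Tcf3 and Tcf12 were added as the other E proteins listed. Alternatives were other list lengths, chaining gaps, filters, pseudocounts, windows, the replicate number as a block and leaving libraries out.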

Additional observations from a re-analysis of the deposited data

Results flagged for a closer look

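Within groups of 4 to 6 libraries, 59 sets of counts or ranks of these genes were examined for 1 library far from the rest, and 9 had one (6 counts, 3 ranks). The limit used is one that about 1 in 20 groups of continuous values pass by chance, which bears on the ranks. It does not hold for the counts, since small whole numbers give such a gap whenever 1 library differs and the others are alike. Mutant 6 on the diet had 5 matched Neurog1 summits, against 2 to 3 in the other mutants on the diet. Mutant 3 on the diet had 0 matched Insm1 summits, against 1 in each of the others. Mutant 2 had 2 matched Neurod2 summits, against 0 in the other mutants, and 3 matched Neurod4 summits, against 2. Mutant 3 had 2 matched Bhlhe22 summits, against 1. Control 1 had 2 matched Neurod1 summits, against 1.

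At the Neurog2 region 7.44 kb upstream, mutant 2 ranked 1464, against 3435 to 3500 in the other mutants, and control 1 on the diet ranked 5019, against 1977 to 2299 in the other controls on the diet. At the Neurog1 region 30.8 kb downstream of the start site, control 3 ranked 16995, against 12353 to 12895 in the other controls.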

How the results depend on the processing

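The number of these genes or regions called was 0 in all 216 alternative values for summits per gene, 168 for presence and 192 for rank, with lowest adjusted p-values of 0.0821, 0.456 and 0.0910. For presence of a region between a pair of groups, group size limits the adjusted p, as given above. The lowest for summits per gene was Neurog2 in mutants on the diet against controls without the 3 least alike libraries (mutants 3 and 4 and mutant 4 on the diet), a setting chosen after seeing the data. That difference ranged from -0.024 to 0.29; with 14556 summits per library it was -0.024, the 1 reversed direction, and the cause was not tested. The Neurod4 site 35.8 kb downstream had a difference in presence of 0 percentage points between mutants and controls with all deposited summits. Leaving out mutant 1 for its genotype label, 0 genes or regions of this set were called. In summits per gene, the replicate numbers did not pair the samples (correlation of same-numbered deviations between -0.141 and 0.156). Such correlations were not computed for ranks. With the replicate number as a block, 0 of 64 gene results (lowest adjusted p 0.604) and 0 of 72 rank results (lowest adjusted p 0.0910) were called. Over all 13035 regions that block moved the rank calls of mutants on against off the diet to 831, against 1 without it, of mutants on the diet against controls to 562, against 0, and of diet pooled over genotypes to 780, against 54. Without mutant 2, 338 regions were called between mutants and controls, against 0. Without the 3 least alike libraries, diet pooled over genotypes called 99 genes, against 7. Summit lists without read counts limit these comparisons to presence and rank.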

Other observations

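Other genes followed the summit counts of these genes across the 19 libraries, given as a description of small whole numbers that share libraries and list length. With log2 matched summits, Insm1 was closest to Bmi1 (Pearson r = 0.936), Neurog2 to Thap1 (0.858), Neurog1 to Cdc25b with 3 other genes at the same value (0.833), Neurod2 to Mfap3 (0.814), Neurod4 to Osbpl5 (0.806), Neurod1 to Erich1 (0.782) and Neurod6 to Itgb8 (0.766). Bhlhe22, which differed in 1 library, shared its exact pattern with 50 genes.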
